A study of Mus musculus with 18 samples.

Results

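Sparse methylated CpG tiles are stretches of 1000 bp that hold only a few measured CpGs, the CG dinucleotides at which mammalian DNA is methylated. On average over the libraries, most reads at these CpGs carried methylation. The data were 18 libraries of reduced representation bisulfite sequencing from the mouse mammary gland. In this method the enzyme MspI cuts DNA at CCGG, bisulfite converts unmethylated cytosine, and the share of reads that stayed unconverted at a CpG is its methylation level. A CpG was kept when it had at least 5 reads in all 18 libraries, and the reads of kept CpGs on chromosomes 1 to 19 were summed per tile. A tile belonged to the set when it held 3 to 9 kept CpGs and when its level, averaged over the 18 libraries, was above 80%. Of 77064 tiles with at least 3 kept CpGs, 30199 met the rule, which is 39.2% of all tiles and 51.3% of the 58868 tiles with 3 to 9 CpGs on these chromosomes. The tiles were thus chosen by their measured average level, which is given below as a description only. The rule used no contrast between libraries, but it puts a ceiling close above every tile and leaves more room for a fall than for a rise.

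The libraries came from C57BL/6 females, from cells labelled as mammary epithelial stem, luminal progenitor or mature luminal cells. For each cell type there were 3 pregnant libraries (day 10, day 16 and day 19), 1 library of retired breeders and 2 virgin libraries (week 3 and week 9). The stages of a state were the only replicates. The labels do not say how many animals gave a library or whether cell types of a stage shared animals, so p-values measure the spread between these libraries, and ages are given for virgin mice only. Marker genes of the cell types were not checked, since no gene was assigned to a tile.

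Most CpGs of a mammalian genome lie outside CpG islands and are methylated by default. The maintenance enzyme Dnmt1, guided by Uhrf1, copies methylation to the new strand after replication, while Dnmt3a and Dnmt3b add it without a template and Tet enzymes start its removal. Scattered CpGs in introns and between genes make up most of this methylated background, and local losses in it are often seen where transcription factors bind distal enhancers. In the mammary gland, pregnancy brings extensive cell division and the growth of milk-secreting alveoli.

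The set covered all 19 autosomes. Its members made up 41.4% of sparse tiles on chromosome 11, the lowest share, and 58.7% on chromosome 3, the highest. Tiles with 3 kept CpGs were the largest class (13535 tiles, 44.8%), followed by those with 4 (6969 tiles, 23.1%) and 5 (3924 tiles, 13.0%), and 808 tiles had 9. The kept CpGs of a tile spanned a median of 132 bp, so a level stands for a small piece of the 1000 bp. Sparse here means few kept CpGs rather than few CpGs in the genome: a median of 5 CpGs was listed per tile in any library, and in 4446 tiles (14.7%) 10 or more were listed. For comparison, sparse tiles with an average of 20 to 80% spanned a median of 125 bp and those under 20% spanned 142 bp. On the X chromosome, which the rule left out, 1902 of 2737 tiles with 3 to 9 CpGs (69.5%) averaged over 80%.

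Within the set, average levels were high and skewed towards the top. The median tile averaged 91.4%. There were 4804 tiles between 80 and 85%, 7283 between 85 and 90%, 13386 between 90 and 95%, 4633 between 95 and 98%, and 93 above 98%. The threshold cut through a continuous range. The 3 tiles nearest above it averaged 80.002, 80.003 and 80.005% (chromosome 5 at 123212001 to 123213000, chromosome 15 at 82193001 to 82194000, and chromosome 14 at 42685001 to 42686000, all on build mm9). The 3 nearest below averaged 79.998, 79.997 and 79.994% (chromosome 17 at 8496001 to 8497000, and chromosome 10 at 86187001 to 86188000 and at 62857001 to 62858000). In spread these neighbours of the threshold had little in common: the chromosome 15 tile lay between 76.2 and 82.4% in the 18 libraries, whereas the chromosome 5 tile lay between 29.6% in the retired mature library and 96.7% in day 16 progenitor.

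Most single CpGs of the set were highly methylated as well. The reads of kept CpGs were summed to choose the tiles, so their high levels are largely set by the rule. Of 128900 kept CpGs in the set, 89.2% averaged over 80% and 64.8% over 90%, and the median gap between the highest and the lowest CpG of a tile was 11.0 points. Exceptions were few: 725 CpGs (0.562%) averaged under 50%, in 702 tiles (2.32%), and 1033 CpGs (0.801%) lay at least 30 points below the level of their own tile. A further 56511 CpGs lay in these tiles but had under 5 reads in at least 1 library, so the rule did not use them. They were measured with 5 reads or more in a median of 16 libraries and in 17105 tiles (56.6%). At these CpGs the median level was 92.7%, and 86.6% of them averaged over 80% while 2.70% averaged under 50%. Their mean level in a library ran from 87.8 to 89.6%.

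Tiles beside the set were mostly methylated as well. Only 6007 members (19.9%) had a tested tile directly next to them. Of the 6418 such neighbours, 79.98% averaged over 80%, 15.6% between 20 and 80%, and 4.46% under 20%, against 45.8, 21.8 and 32.4% of all tiles on these chromosomes. Neighbours of sparse tiles with a middle level were split more evenly, with 32.6% over 80%, 33.9% between 20 and 80% and 33.4% under 20%. Members whose tested neighbours were all above 80% averaged 91.7% and had a median SD over the 18 libraries of 2.60 points (4749 tiles). The 285 members with a neighbour under 20% averaged 89.2%, with a median SD of 4.70 points. Neighbours share reads of the same libraries and similar sequence, so no test was made of these differences. Most members (26253, or 86.9%) did not touch another member, and the longest unbroken run held 9 tiles. That run, on chromosome 3 at 93015001 to 93024000, had 55 kept CpGs, and its tiles averaged between 93.1 and 96.1%. Its mean in a library lay between 92.3% (day 19 progenitor) and 96.8% (day 16 stem). Several runs had 6 tiles. The one described, on chromosome 10 at 22457001 to 22463000, held 31 CpGs in tiles that averaged between 86.4 and 97.5%.

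Depth differed between the libraries that were compared. The median number of reads in a member tile was 172, 93 and 121 in pregnant stem libraries (day 10, day 16, day 19), and 200 and 262 in virgin stem libraries (week 3, week 9). It was 61 to 85 in the retired libraries and 361 to 388 in the 3 deepest, which were week 3 and week 9 virgin mature and week 9 virgin progenitor. A level of exactly 100% was more frequent in shallow libraries, with 12.0% of members in retired progenitor (61 reads) and 0.0497% in week 9 virgin progenitor (361 reads). Reads can be copies of one molecule, and intervals were not computed for this reason.

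Averaged over all members, methylation hardly moved with cell type or stage. The mean level in a library ran from 89.0% in day 19 pregnant stem to 91.6% in week 3 virgin mature. By cell type the mean was 89.9% ± 0.512 in stem, 90.5% ± 0.619 in progenitor and 90.7% ± 0.506 in mature cells (SD, 6 libraries each). In stem cells the 3 pregnant libraries had 90.2, 89.7 and 89.0%, the retired library 90.4% and the virgin libraries 89.7 and 90.2%. Pregnant and virgin stem libraries thus overlapped. Their means were 89.6% ± 0.579 (n = 3) in pregnant and 89.98% ± 0.342 (n = 2) in virgin stem cells, a difference of -0.347 points. In progenitor cells pregnant libraries averaged 90.4% ± 0.802 (n = 3) and virgin libraries 90.4% ± 0.0115 (n = 2). In mature cells the means were 90.7% ± 0.224 (n = 3) in pregnant and 90.9% ± 0.989 (n = 2) in virgin libraries. Retired libraries had 91.3% in progenitor and 90.4% in mature cells. Because the average level chose the tiles, no test was made. At sparse tiles with a middle level, by contrast, pregnant stem libraries had means of 57.2, 55.3 and 55.4%, against 60.1 and 61.0% in virgin stem libraries, a mean difference of -4.60 points (pregnant minus virgin) with no overlap.

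**Figure D1:**
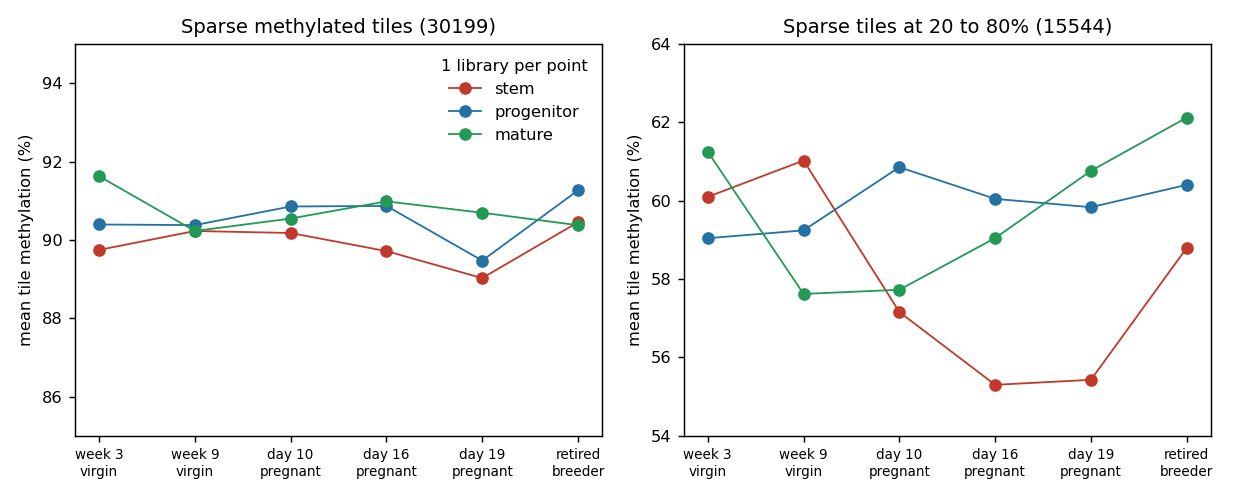
Mean tile methylation (%, vertical axis, each panel spanning 10 points) in each of the 18 libraries by stage, for the 30199 sparse methylated tiles (left) and the 15544 sparse tiles with an average of 20 to 80% (right); each point is 1 library and lines join the stages of a cell type. The methylated tiles stay between 89.0 and 91.6%, while the 3 pregnant stem libraries are at 55.3 to 57.2% in the middle tiles.

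Single tiles varied more than that mean, and part of this spread was that of read counting. The SD of a member's level over the 18 libraries had a median of 3.49 points (quartiles 2.47 and 4.93), and the range from lowest to highest library a median of 13.2 points. Counting of independent reads alone would give a median SD of 2.51 points. The dispersion, the spread around the means of the 9 groups relative to counting, had a median of 1.91, against 4.23 in sparse tiles with a middle level and 1.27 in methylated tiles with 10 or more CpGs. Spread fell with the number of CpGs, and median reads moved with it: the median SD was 4.19 points in tiles with 3 CpGs (124 reads) and 1.89 points in tiles with 9 CpGs (378.5 reads). It was also larger near the threshold, with 5.67 points in tiles averaging 80 to 85% and 1.69 points in the 93 tiles above 98%. In 19037 members (63.0%) every library was above 80%. In 152 members (0.503%) at least 1 library was under 50%, and in 146 of these it was 1 library only. The lowest library of those 152 tiles was most often retired mature (46 tiles), followed by week 9 virgin stem (23 tiles) and day 16 pregnant stem (17 tiles). In these libraries the low level rested on a median of 70.5 reads, and on fewer than 50 in 52 tiles.

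**Figure D2:**
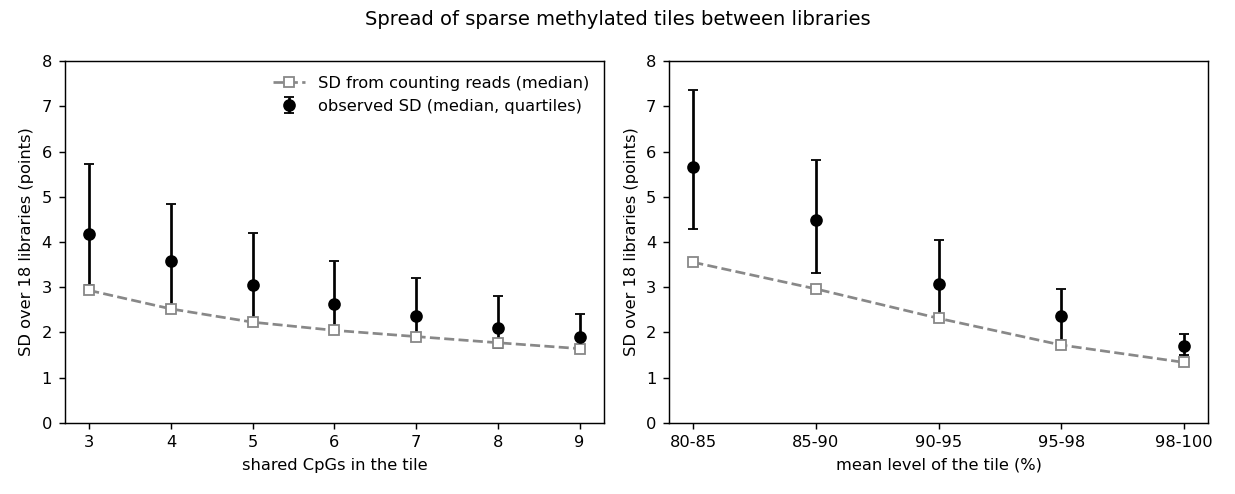
SD of a tile's methylation over the 18 libraries (points, vertical axis) by the number of shared CpGs (left) and by the average level of the tile (right), for the sparse methylated tiles. Black points are medians with bars to the lower and upper quartile, and open squares are the median SD that counting of reads alone would give; both decline to the right, from 4.19 to 1.89 points and from 5.67 to 1.69 points for the observed SD.

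The members with the widest ranges, among those with at least 50 reads in every library, did not all have their lowest value in the same library, and week 9 virgin stem was lowest in 2 of the 6. On chromosome 12 at 8426001 to 8427000 (3 CpGs) pregnant stem libraries had 97.0, 94.2 and 92.9%, the retired stem library 98.4% and virgin stem libraries 75.3 and 28.7%. In that tile the retired mature library was also low, at 36.0%. On chromosome 10 at 44161001 to 44162000 (4 CpGs) the order in stem cells was the opposite, with 69.8, 36.0 and 59.6% in pregnant libraries, 68.4% in the retired library, and 91.3 and 97.0% in virgin libraries. Neither tile was called for pregnancy in stem cells (adjusted p = 0.129 and 0.102 in the moderated quasi-binomial model described below). The tile on chromosome 11 at 76081001 to 76082000 was lowest in day 19 pregnant stem (42.1%) and highest in retired mature (100%). On chromosome 9 at 14507001 to 14508000, a tile of 8 CpGs, retired mature had 37.8% and day 16 progenitor 94.9%. The remaining 2 were on chromosome 14 at 121463001 to 121464000, lowest in week 9 virgin stem (43.5%), and on chromosome 9 at 44536001 to 44537000, lowest in day 19 progenitor (41.6%). The narrowest ranges were 1.65 points on chromosome 2 at 98506001 to 98507000, 2.14 points on chromosome 17 at 58113001 to 58114000 and 2.31 points on chromosome 1 at 84376001 to 84377000. The chromosome 2 tile stood apart in depth, with 379107 to 5459208 reads per library on 3 CpGs and 94.7 to 96.3% methylation. The chromosome 1 and chromosome 17 tiles had ordinary depth and held 9 and 8 CpGs.

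In stem cells 35 members differed between pregnant and virgin libraries, 22 with more methylation in pregnant stem cells and 13 with less. A call needed a difference of at least 10 points and an adjusted p under 0.05 in a quasi-binomial logistic regression whose dispersion was moderated across tiles. The 35 are 0.116% of the set, against 0.308% of all 77064 tested tiles. The 22 with more methylation compare with 0.0805% of all tiles called in that direction and the 13 with less with 0.227%. Of the 35, 17 averaged 80 to 85% (0.354% of members at that level) and 10 averaged 85 to 90% (0.137%). Another 8 averaged 90 to 95% (0.0598%). None of the 4633 at 95 to 98% or of the 93 above 98% was called. Such levels leave little room for a difference of 10 points, and shares of all tiles by level were not computed. Pregnant libraries lay above both virgin libraries at 2971 members (9.84%, against 8.06% of all tiles) and below both at 3713 members (12.3%, against 18.0% of all tiles). In progenitor cells pregnant libraries lay above both virgin ones at 2932 members (9.71%, against 7.89% of all tiles) and below both at 2067 (6.84%, against 8.24%). In mature cells they lay above at 2264 members (7.497%, against 6.57% of all tiles) and below at 2862 (9.48%, against 8.72%). In stem cells a difference of at least 10 points was seen upwards in 663 members and downwards in 784, together 4.79% of the set. Of all tiles, 3.44% differed by as much upwards and 8.18% downwards. Of the 3073 members with an unadjusted p under 0.05 (10.2%, against 14.3% of all tiles), 1340 were higher and 1733 lower in pregnant stem cells. The split of 22 to 13 turned round with the bound on the fitted values: with logits held within 18 of 0 rather than 14, there were 6 called tiles with more methylation and 10 with less. It also turned round without either virgin mature library, as given below. Pregnant stem libraries were shallower at the called tiles, with a median of 153 reads against 292.5 in virgin stem libraries at the 13 tiles and 166 against 279.5 at the 22. The part of depth in the calls was not tested beyond the thinned reads given below.

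At the called tiles with less methylation in pregnant stem cells, the pregnant stem libraries had the lowest mean of any kind of library. Over the 13 tiles pregnant stem libraries averaged 72.0%, virgin stem libraries 91.0%, the retired stem library 81.2%, and progenitor and mature libraries 88.3%. By stage the means were 89.6% in week 3 and 92.4% in week 9 virgin stem cells, and 71.4, 71.7 and 73.0% at day 10, day 16 and day 19. All 3 pregnant stem libraries lay below the median of the 12 progenitor and mature libraries in 13 of the 13 tiles, and below the lowest of them in 9. The average over 80% that a member needs leaves little room for tiles at which progenitor and mature libraries were low as well, so these counts are a description. The median change was -19.5 points, and the same tiles changed by a median of 4.41 points with pregnancy in progenitor cells and by -0.0114 points in mature cells. Neither change passed the test at any of them.

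Among the falls, a tile of 6 kept CpGs on chromosome 1, from 180973001 to 180974000, had the largest. Pregnant stem libraries had 57.9, 64.2 and 75.8% there (day 10, day 16, day 19), the retired stem library had 70.9%, and virgin stem libraries had 89.6 and 94.99% (week 3, week 9). The 12 progenitor and mature libraries lay between 69.7 and 90.4%, so they covered the level of day 19. The difference was -26.3 points (66.0% ± 9.08, n = 3, against 92.3% ± 3.78, n = 2; moderated quasi-binomial model, adjusted p = 0.0411). Its size and the order of the stages depend on how reads were shared between the CpGs, as given below. On chromosome 2 at 155435001 to 155436000 (3 CpGs) pregnant stem libraries had 76.8, 64.7 and 75%, the retired library 77.8%, and virgin libraries 95.6 and 96.9%. Here the lowest progenitor or mature library was at 80.4%, above all pregnant stem libraries, and the fewest reads in a pregnant stem library were 36. At 27667001 to 27668000 on chromosome 3 (5 CpGs) there were 80.8, 69.3 and 66.0% in pregnant stem libraries, 76.8% in the retired library, and 94.4 and 95.02% in virgin libraries. Its lowest progenitor or mature library had 84.3%. At the second tile on chromosome 1, from 146139001 to 146140000 (3 CpGs), pregnant stem libraries had 67.3, 59.7 and 69.1%, the retired library 75.3%, and virgin libraries 83.4 and 92.6%.

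At the 4 smaller falls named, pregnant stem libraries lay below both virgin ones, which the naming rule required. On chromosome 11 at 117973001 to 117974000 the mean was 68.9% ± 5.87 in pregnant and 90.5% ± 2.83 in virgin stem libraries, and the retired stem library, at 89.9%, lay with the virgin ones. On chromosome 4 at 132617001 to 132618000 it was 71.3% ± 6.40 in pregnant and 90.8% ± 2.26 in virgin stem libraries. At 4183001 to 4184000 on chromosome 8 there were 65.9% ± 2.58 in pregnant and 81.6% ± 4.34 in virgin stem libraries. With 8 CpGs, the one at 100569001 to 100570000 on chromosome 11 had 74.9% ± 3.32 in pregnant and 88.6% ± 0.922 in virgin stem libraries. Adjusted p at these 8 tiles was 0.0400 to 0.0466 in the moderated quasi-binomial model, with 3 pregnant and 2 virgin libraries.

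The called tiles with more methylation in pregnant stem cells had the opposite arrangement, in that the virgin stem libraries stood apart. Over the 22 tiles pregnant stem libraries averaged 90.9%, virgin stem libraries 70.3%, the retired stem library 87.6%, and progenitor and mature libraries 87.2%. Both virgin stem libraries lay below the median of the 12 progenitor and mature libraries in 22 of the 22 tiles, and below the lowest of them in 15. A tile can belong to the set only if its average over all libraries exceeds 80%, so tiles at which progenitor and mature libraries were low too could not appear here. Week 9 was the lower virgin library in 20 of the 22 tiles, with a mean of 65.1% against 75.5% at week 3, while day 10, day 16 and day 19 averaged 92.5, 91.0 and 89.1%. The median change was 20.7 points. With pregnancy the same tiles changed by a median of 0.401 points in progenitor and -0.493 points in mature cells, and none of these changes passed the test.

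**Figure D3:**
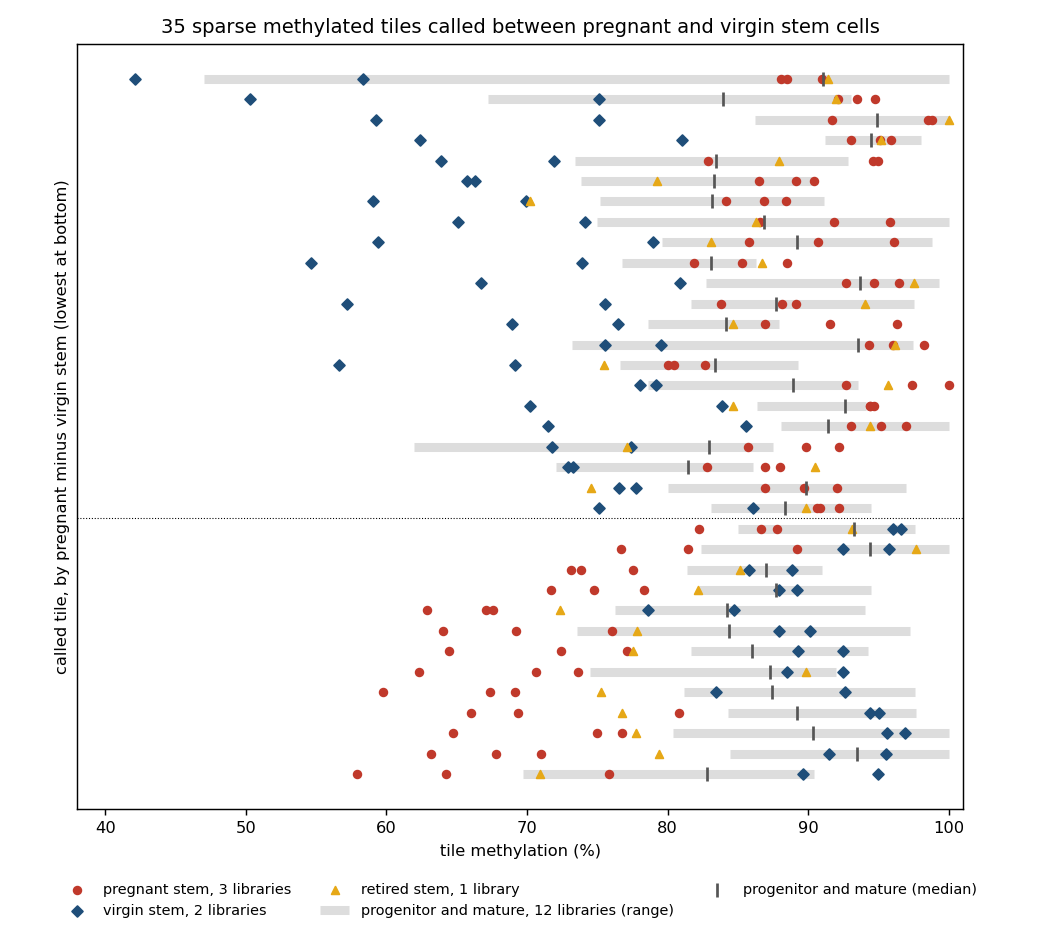
Methylation (%, horizontal axis) of the 35 sparse methylated tiles that differed between pregnant and virgin stem cells, 1 tile per row, ordered by the difference; red circles are the 3 pregnant, blue diamonds the 2 virgin and the yellow triangle the 1 retired stem library, the grey bar is the range and the tick the median of the 12 progenitor and mature libraries. Above the dotted line (22 tiles) the virgin stem libraries sit left of the tick, and below it (13 tiles) the pregnant stem libraries do.

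Among the rises, a tile of 3 CpGs on chromosome 14, from 63524001 to 63525000, had the largest. Pregnant stem libraries had 91.0, 88.1 and 88.5%, the retired stem library 91.4%, and virgin stem libraries 58.3 and 42.1%. Progenitor and mature libraries had a median of 91.1%, and the lowest of them, retired mature, was at 47.1%. The difference was 39.0 points (89.2% ± 1.55, n = 3, against 50.2% ± 11.5, n = 2; moderated quasi-binomial model, adjusted p = 0.0402). On chromosome 11 at 88177001 to 88178000 (4 CpGs) pregnant stem libraries had 93.4, 92.1 and 94.7%, the retired library 92.0%, and virgin libraries 75.1 and 50.3%. At 35084001 to 35085000 on chromosome 2 (4 CpGs) there were 98.5, 98.8 and 91.7% in pregnant stem libraries, 100% in the retired library, and 75.1 and 59.2% in virgin libraries. On chromosome 1 at 34348001 to 34349000 (7 CpGs) pregnant stem libraries had 95.9, 95.1 and 93.0%, the retired library 95.2%, and virgin libraries 81.0 and 62.4%. At that tile the 12 other libraries were all between 91.2 and 98%, so the virgin stem libraries were the 2 lowest of the 18.

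Of the next 4 rises, 3 were on chromosome 4. At 47196001 to 47197000 on that chromosome the mean was 90.8% ± 6.89 in pregnant and 67.9% ± 5.66 in virgin stem libraries. At 151113001 to 151114000 it was 86.5% ± 2.14 in pregnant and 64.5% ± 7.71 in virgin stem libraries, and the retired stem library, with 70.2%, lay near the virgin ones. At 126967001 to 126968000 pregnant stem libraries had 91.4% ± 4.66 and virgin stem libraries 69.6% ± 6.37. At 117199001 to 117200000 on chromosome 11 lay the closest virgin values, 66.3 and 65.7%, against 86.5, 90.4 and 89.1% in pregnant stem libraries. Adjusted p at the 8 rises was 0.0402 to 0.0485 in the moderated quasi-binomial model.

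Single CpGs mostly moved together within these 16 tiles, but not everywhere. In the 8 tiles with rises, 31 of 31 kept CpGs were higher in pregnant stem cells, 28 of them by at least 10 points. In the 8 tiles with falls, 36 of 38 CpGs were lower, 24 of them by at least 10 points. The reads of these CpGs were the ones summed to call and rank the tiles, so a shared direction is largely set by that choice. The CpGs of a tile also lay within 20 to 254 bp of each other. At the largest fall the change sat in the last 2 of 6 CpGs. At position 180973980 pregnant stem libraries had 22.4, 12.9 and 8.33% (58, 31 and 12 reads), and virgin stem libraries had 50 and 96.8% (24 and 63 reads). At position 180973988 they had 17.7, 17.9 and 0% in pregnant and 48.1 and 78.4% in virgin stem cells. Progenitor and mature libraries were at middle levels there too. Their medians at the 2 positions were 43.2 and 52.9%, and their lowest levels 14.3 and 24.4%. The 4 CpGs before these 2, from 180973868 to 180973893, stayed between 73.5 and 100% in all stem libraries and differed by -1.59 to -7.33 points on average. A tile level weights each CpG by its reads, and these weights were uneven. The last 2 CpGs had 58 and 62 reads at day 10, 12 each at day 19, and 24 and 27 at week 3. The first 4 had 28 to 31, 30 to 34 and 76 to 81 reads in these libraries. Tile levels of the stages therefore also follow the read shares. When CpGs needed 10 reads in every library, the difference of this tile shrank to -5.40 points. At the largest rise all 3 CpGs changed, by 50.2 points at position 63524192, 37.9 points at 63524202 and 36.6 points at 63524263. These levels rested on as few as 10 reads in the day 16 and day 19 libraries.

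**Figure D4:**
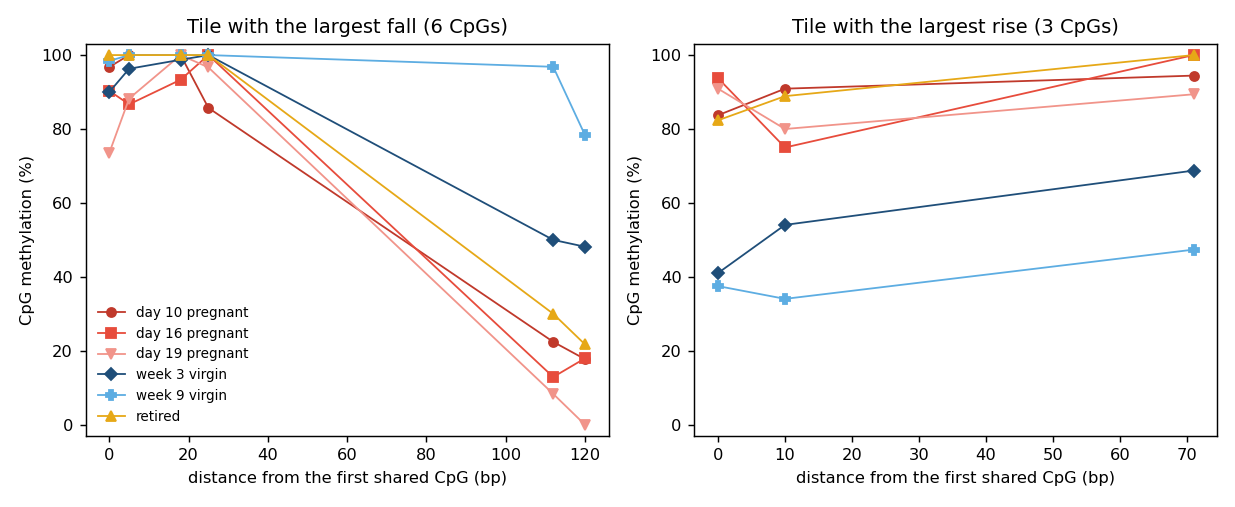
Methylation (%, vertical axis) of each shared CpG in the 6 stem libraries by distance from the first CpG (bp), for the tile with the largest fall (left, 6 CpGs) and the largest rise (right, 3 CpGs); each line is 1 library. On the left the pregnant and retired libraries separate from the virgin ones at the last 2 CpGs, where pregnant libraries have 0 to 22.4%, and on the right all 3 CpGs are lower in both virgin libraries.

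Few called members had a tile beside them to compare. Of the 35, 4 had a tested neighbour, 0 of the 4 neighbours were called, and 1 of them changed in the same direction. The median size of their change was 0.825 points. On chromosome 2 the neighbour of the 35084001 tile, which averaged 37.2%, differed by -18.4 points (adjusted p = 0.579 in the moderated quasi-binomial model), opposite to the rise beside it.

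How many members were called rested on single libraries, including ones outside the comparison. With a library left out, calls were counted among members only, so here and below no share of all tiles stands beside those counts. Leaving out a library of stem cells gave 202 called members without week 3 virgin, 28 without day 19, and 0 without week 9 virgin, day 10 or day 16. Leaving out either virgin mature library gave 198 (75 with more and 123 with less methylation in pregnant stem cells). Without 1 progenitor library of a virgin or pregnant stage the count was 0 to 2. It was 14 without day 10, 1 without day 16 and 74 without day 19 mature. Limma, run on the log2 of methylated over unmethylated reads, called 0, and after thinning all libraries to the shallowest at each tile it was 0. Within the 11 libraries whose files share the layout of 4 columns, which drops day 19, day 16 progenitor and the retired libraries, 6 members were called, 3 in each direction. At the 16 named tiles the direction held under every alternative computed for them. They were chosen without overlap of pregnant and virgin stem libraries, so leaving out a library could not turn the direction. Only settings that changed the reads could: 10 reads per CpG, deepest CpGs removed and thinned reads. With thinned reads adjusted p was 0.212 to 0.522 in the moderated quasi-binomial model.

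**Figure D5:**
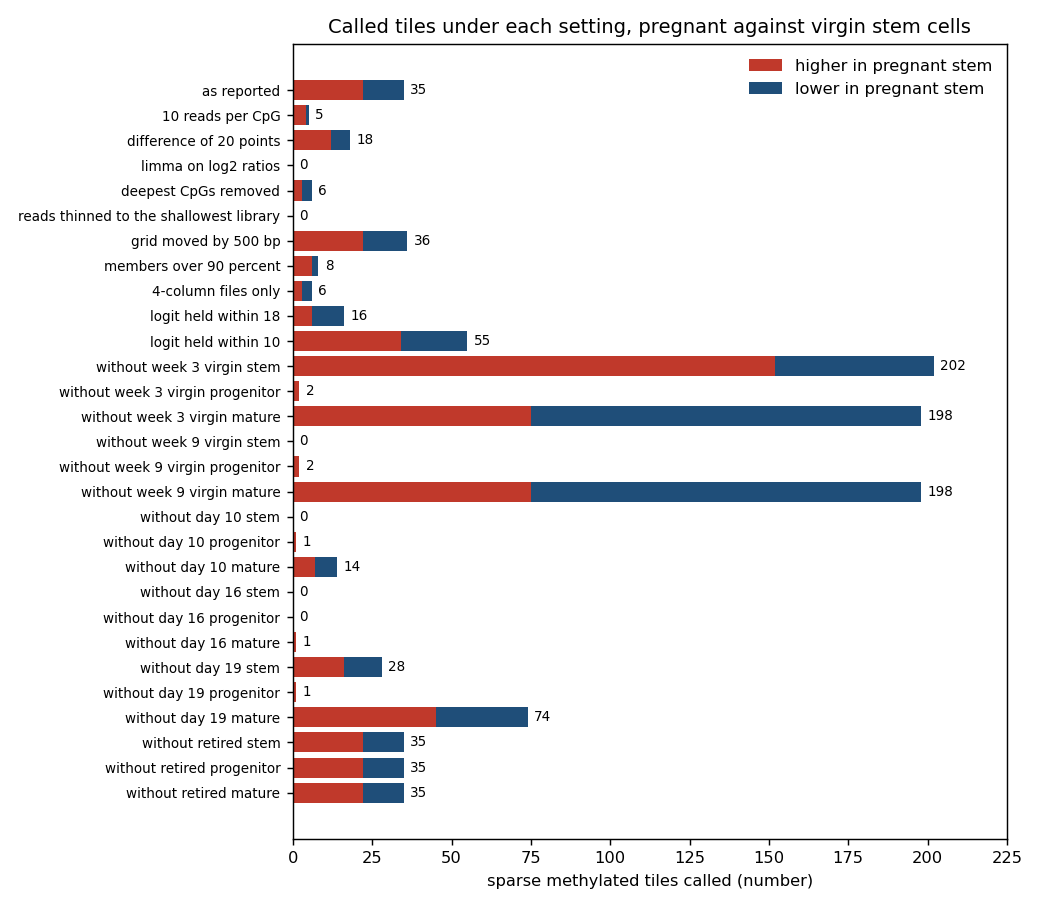
Number of sparse methylated tiles called for pregnancy in stem cells (horizontal axis) as reported and under each alternative setting or with 1 library left out (rows); red is higher and blue lower in pregnant stem cells. The count runs from 0 to 202 around the reported 35.

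The other 12 comparisons gave 0 called members by the moderated quasi-binomial model, where 0.0% of all tiles were called too. With pregnancy in progenitor cells 967 members (3.20%, against 3.76% of all tiles) had an unadjusted p under 0.05, and in mature cells 1317 (4.36%, against 5.08%). Averaged over cell types these were 1493 members (4.94%, against 6.53% of all tiles). Whether pregnancy acted differently in 2 cell types was tested as such in the moderated quasi-binomial model. These tests and the average over cell types had no stage term, so libraries of the same stage were not paired. For stem minus progenitor 2146 members (7.11%, against 10.5% of all tiles) had an unadjusted p under 0.05 (smallest adjusted p = 0.172). There were 2431 (8.05%, against 11.4%) for stem minus mature (0.0752) and 1230 (4.07%, against 4.66%) for progenitor minus mature (0.998). Limma also called 0 members in these 6 comparisons. The effect in stem cells is therefore not shown to differ from that in the other cell types, although only stem cells had called tiles. Without week 3 virgin mature, 173 members were called for stem minus mature and 3 for pregnancy in mature cells.

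Between cell types, stem libraries were on the low side at many tiles, none of which was called. Stem minus mature had a median of -0.580 points over the set (-0.157 over all tiles), and stem minus progenitor one of -0.404 points (-0.118). At an unadjusted p under 0.05 there were 2754 members for stem minus mature (9.12%, against 11.0% of all tiles), 2295 of them lower in stem cells, with a smallest adjusted p of 0.1002. For stem minus progenitor there were 2241 (7.42%, against 9.28%), 1686 of them lower in stem cells. Progenitor minus mature had 1509 (5.00%, against 5.96%), 1094 lower in progenitor cells. Limma called 0 members in each of these. Week 9 minus week 3 in virgin libraries had 1690 members at an unadjusted p under 0.05 (5.60%, against 6.28% of all tiles), of which 1189 were lower at week 9, and limma called 0.

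Retired libraries lay on both sides of the others, again with 0 called tiles by the quasi-binomial model. Retired minus virgin had a median of 0.349 points over the set (-0.0269 over all tiles), with 2066 members at an unadjusted p under 0.05 (6.84%, against 5.29% of all tiles), 1620 of them higher in retired libraries. Differences of at least 10 points were more often downwards, at 337 members against 242 upwards (together 1.92%, against 4.53% of all tiles). Retired minus pregnant had a median of 0.515 points (0.104 over all tiles). At an unadjusted p under 0.05 there were 1980 members (6.56%, against 4.83%), 1630 higher in retired libraries. By at least 10 points 342 members were lower and 279 higher (together 2.06%, against 5.01% of all tiles). Here limma called 22 of the 30199 members against virgin libraries (20 higher and 2 lower in retired ones), and 38 of all 77064 tiles. Against pregnant libraries it called 39 members (34 higher and 5 lower), and 65 of all tiles. The 3 retired libraries and day 16 progenitor were the shallowest by median reads in member tiles. All retired and no virgin libraries came in the 6-column file layout, so between those states stage and layout cannot be told apart. Among the called tiles of stem cells, the retired stem library was closer to the pregnant stem mean at 8 of the 13 falls. The same held at 18 of the 22 rises, for 1 library without a replicate. The median of progenitor and mature libraries was closer to the pregnant stem mean at 22 of the 22 rises and at 0 of the 13 falls. Members have a high average by rule, so at rises most libraries other than virgin stem lie near the pregnant mean. Whether a change with pregnancy lasted was not tested.

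Deviations of libraries from each tile's mean were only weakly shared across the 30199 members. Pearson's r between pregnant stem libraries was 0.0625 to 0.152, that of the retired with the pregnant stem libraries -0.0193 to 0.0522, and that between the virgin stem libraries 0.0944. Virgin with pregnant stem libraries had r of -0.187 to 0.0646. All 153 pairs ran from -0.249 to 0.233, and the highest was week 3 virgin stem with day 19 pregnant progenitor. These r are across tiles, which are not independent replicates, and centring on the tile mean pulls unrelated libraries slightly below 0.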

How the data were processed

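Methylation was measured by multiplexed reduced representation bisulfite sequencing in 18 libraries. The authors deposited 1 file per library without header, with methylated reads over all reads at each CpG, on build mm9 per the submitters' processing notes. In 7 files the authors also deposited a score, which equals 1000 times the methylated share (largest difference 0.5) and served only as a check. The sources used here do not give the aligner, the caller or how duplicates were handled. Files listed 1328066 to 1479376 CpGs and 17513287 to 117922522 reads over CpGs, and 711980 CpGs had at least 5 reads in all 18.

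Reads were summed per 1000 bp tile, and a quasi-binomial logistic regression over all 18 libraries was run for each of 77064 tiles. Pearson dispersions were shrunk by the method of limma's squeezeVar with a floor of 1, and fitted logits were held within 14 of 0. F tests were adjusted by Benjamini-Hochberg over all tiles, for each of 13 comparisons on its own. Pregnancy and retirement used the 9 groups of cell type by state, and cell types and virgin ages a model of cell type plus stage. Replicate numbers stand for the stages of a state, so they tie the cell types of a stage, which is the stage term above, but pair no pregnant with a virgin library.

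Tiles were named by a rule that left out chromosome 18, whose 2 called members, falls of -26.2 and -19.3 points, are counted only: the 8 largest falls and rises among other called members without overlap of pregnant and virgin stem libraries, the 6 widest and 3 narrowest ranges with 50 reads in every library, the 3 tiles on either side of 80%, and the 2 longest runs (of runs of equal length, the first by chromosome and position). The set, the comparisons and these rules were chosen with earlier results of these data known. The gene and promoter tables at hand are on build GRCm38.p6, so no gene was assigned and no sequence is shown. Python 3.11.15, numpy 2.4.6, scipy 1.17.1, pandas 2.3.3, R 4.3.3, limma 3.58.1 and statmod 1.5.0 were used.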

Additional observations from a re-analysis of the deposited data

Results flagged for a closer look

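At 6 of the 16 named tiles all pregnant stem libraries lay on one side of the virgin ones while those of another cell type lay on the other side. The naming rule set the side in stem cells. Of all tiles, pregnant progenitor libraries lay above both virgin ones at 7.89% and below both at 8.24%. For mature cells these shares were 6.57% and 8.72%. The share of all tiles with opposite sides in different cell types was not computed. The direct test of each difference (moderated quasi-binomial model without a stage term) missed the threshold. On chromosome 1 at 180973001 the pregnancy effect in stem minus progenitor cells was -34.01 points (-26.33 in stem, 7.67 in progenitor cells, adjusted p = 0.172). On chromosome 3 at 27667001 it was -27.12 points (adjusted p = 0.191). At 146139001 on chromosome 1 it was -31.61 points against progenitor (adjusted p = 0.172) and -29.80 points against mature cells (0.0752). On chromosome 11 at 100569001 it was -19.48 points against progenitor (adjusted p = 0.172) and -17.73 points against mature cells (0.088). On chromosome 4 the difference of stem minus mature cells was 27.23 points at 47196001 (adjusted p = 0.112) and 28.45 points at 126967001 (0.088). The tiles had been chosen for their change in stem cells, which makes these differences large by construction. Groups of 1 to 3 libraries were too small for a check of single outliers.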

How the results depend on the processing

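Members called between pregnant and virgin stem cells (35) numbered 5 with 10 reads per CpG, which left 15403 members of 41610 tiles, 18 with a difference of 20 points, 0 with limma, 6 without the deepest CpGs, 0 with thinned reads and 8 among members over 90%. Chosen after seeing the data, the 4-column files gave 6, logits held within 18 gave 16 and within 10 gave 55. Leaving out 1 library gave 0 to 202, 0 to 3 for pregnancy in mature cells, 0 to 3 for stem minus mature cells, 0 to 2 where the pregnancy effects of stem and progenitor cells were compared, and 0 to 173 where those of stem and mature cells were. Limma called 22 members for retired minus virgin (38 of all tiles) and 39 for retired minus pregnant (65 of all tiles), and the causes were not tested. Where a group was left with 1 library, it was assumed to vary like the others, and without a retired library the retired averages could not be fitted. With 10 reads the mean level of members was 90.6% in pregnant, 91.2% in retired and 90.9% in virgin stem libraries, 91.2%, 92.0% and 91.2% in the same states of progenitor cells, and 91.5% in pregnant and 91.1% in retired mature libraries; virgin progenitor had 90.4% on the moved grid, 90.2% as a mean of CpG levels and 90.4% without the deepest CpGs. Pregnant minus virgin in mature cells ran from -0.885 to 0.514 points with 1 library left out. Pregnant and virgin libraries could not be paired, because replicate numbers here stand for stages, which differ between them. Each stage gave 1 library per cell type. Comparisons of pregnancy effects between cell types, and of states averaged over cell types, still had no stage term and took these libraries as independent. For cell types, dropping the stage block changed no count from 0. The 16 named tiles kept their direction in every alternative value computed. Being chosen without overlap, they could turn only where the reads changed. In those settings few passed the threshold: 2 of the 9 tiles still tested with 10 reads per CpG, 3 of 15 without the deepest CpGs and 0 of 16 with thinned reads. The threshold was missed in other settings too. With limma 0 of 16 passed, and 0 of 16 without day 10 or without day 16 pregnant stem. With logits held within 10 of 0, 16 of 16 passed. Depth limits precision most in the retired progenitor library, with a median of 61 reads per member tile.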
